A study of Mus musculus with 12 samples.

Results

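The genes described here are 10 components of the unfolded protein response and the integrated stress response, taken by gene symbol from the deposited table of 45906 genes: Hspa5, Hsp90b1, Xbp1, Herpud1, Atf4, Ddit3, Trib3, Asns, Chac1 and Sesn2. Each symbol occurred in 1 row, and all 10 passed the filter on low counts, as did 20155 genes in all. In 7-month-old mice that carry the human SOD1-G93A transgene, lack Plekhg5, or both, none of the 10 passed edgeR testing in any of 6 comparisons. In these, edgeR called 0.0% to 2.47% of all genes. DESeq2 called 4 of the 10 in 1 comparison, where with its prior it called 6.12% of all genes. It called Hsp90b1 in 2 others, where it called 0.144% and 0.611% of all genes. The endoplasmic reticulum (ER) genes Hspa5, Hsp90b1, Xbp1 and Herpud1 were highest in 2 of the 3 Plekhg5+/+ libraries. Trib3, the least abundant of the 10, lay higher in each of the 6 SOD1-G93A libraries than in any of the 6 without the transgene. Such a separation, in either direction, was found for 1.8% of all genes.

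The unfolded protein response is triggered when unfolded proteins accumulate in the ER. Its sensors are IRE1, which splices Xbp1 mRNA, ATF6, which is cleaved to a transcription factor, and PERK, which phosphorylates the initiation factor eIF2. Phosphorylated eIF2 is also where the integrated stress response begins. Most protein synthesis slows while ATF4 is translated, and ATF4 then activates genes of amino acid supply and, with CHOP (the product of Ddit3), of cell death. Both pathways have been studied in motoneurons expressing mutant SOD1, a cause of familial amyotrophic lateral sclerosis. Counts per gene record neither Xbp1 splicing nor the translation of Atf4 and Ddit3.

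Whole spinal cord was analysed from 3 mice of each of 4 genotypes: Plekhg5+/+ without a transgene, Plekhg5-/- without a transgene, Plekhg5+/+ SOD1-G93A and Plekhg5-/- SOD1-G93A. Plekhg5 encodes a guanine nucleotide exchange factor active in neuronal autophagy, and no restriction of its loss to a cell type is given. The SOD1-G93A mice were of a low copy line with a slow disease course. The design asks how loss of Plekhg5 alters the SOD1-G93A phenotype. In bulk tissue, fewer cells of a type and less RNA per cell cannot be told apart, and motoneurons are a minor part of the spinal cord.

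The libraries held 30415643 to 38743628 counts. In CPM, the counts scaled to library size, Plekhg5 had 19.4 to 25 in the Plekhg5+/+ libraries of both kinds and 3.28 to 4.72 in the Plekhg5-/- libraries. Human SOD1 had 4421 CPM or more in the SOD1-G93A libraries and at most 5.47 CPM in the others. The first Plekhg5+/+ SOD1-G93A library stood apart from the rest on the first principal component. Y-linked transcripts were present in 3 Plekhg5+/+, 2 Plekhg5-/-, 2 Plekhg5+/+ SOD1-G93A and 1 Plekhg5-/- SOD1-G93A library. Markers of neurons, oligodendrocytes and astrocytes were present in every library, and no gene of 8 cell type lists was at 0 throughout a genotype.

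Promoters of the 10 genes, 250 bases before to 50 bases after the transcription start, were read from RefSeq on build GRCm38.p6 and searched on both strands. The ER stress element (ERSE), bound by ATF6 with NF-Y, was searched as CCAAT and CCACG separated by 9 bases. ERSE-II was searched as ATTGG and CCACG separated by 1 base, and the C/EBP-ATF response element (CARE), bound by ATF4, as TGATG, any base, AA. ERSE was found in Hspa5 and Hsp90b1 and in 0.119% of the 32851 promoters of the table. ERSE-II was found in Herpud1 alone among the 10 and in 0.0365% of all promoters. CARE was found in Asns, Chac1, Herpud1 and Trib3 and in 3.97% of all promoters. Neither the cyclic AMP response element (TGACGTCA, 1.79% of promoters) nor the core of the unfolded protein response element (TGACGTGG, 0.676%) occurred in the 10 windows. No motif searched was found in the windows of Xbp1, Atf4, Ddit3 and Sesn2. The promoters of the 3 ER genes with such elements are shown, and capitals mark the motifs. In Hspa5 (chr2:34771840-34772139, + strand) the ERSE lay at positions -65 to -47 from the start:
Hspa5: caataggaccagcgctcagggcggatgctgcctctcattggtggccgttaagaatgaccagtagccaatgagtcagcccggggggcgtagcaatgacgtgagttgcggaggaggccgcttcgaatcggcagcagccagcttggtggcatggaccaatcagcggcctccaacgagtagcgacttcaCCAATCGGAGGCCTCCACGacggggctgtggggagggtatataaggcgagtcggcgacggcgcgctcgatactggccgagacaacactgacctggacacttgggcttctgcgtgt
In Hsp90b1 (chr10:86705395-86705694, - strand) an ERSE lay at -212 to -194 and another, on the opposite strand, at -107 to -89:
Hsp90b1: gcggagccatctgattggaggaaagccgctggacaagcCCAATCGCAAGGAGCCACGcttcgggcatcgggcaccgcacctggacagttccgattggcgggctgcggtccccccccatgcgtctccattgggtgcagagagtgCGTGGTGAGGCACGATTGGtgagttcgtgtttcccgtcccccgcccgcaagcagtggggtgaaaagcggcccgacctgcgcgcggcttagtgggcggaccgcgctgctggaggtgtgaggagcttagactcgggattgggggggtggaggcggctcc
In Herpud1 (chr8:94386179-94386478, + strand) a CARE on the opposite strand lay at -112 to -105 and the ERSE-II at -52 to -42:
Herpud1: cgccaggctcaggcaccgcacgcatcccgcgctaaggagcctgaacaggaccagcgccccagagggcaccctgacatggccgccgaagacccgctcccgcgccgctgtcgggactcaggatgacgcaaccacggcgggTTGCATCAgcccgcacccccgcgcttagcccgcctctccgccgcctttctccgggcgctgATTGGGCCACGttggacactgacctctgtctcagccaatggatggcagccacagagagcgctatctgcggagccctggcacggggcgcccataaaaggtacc

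The CARE is shown within 60 bases for Asns and Chac1, targets of ATF4 whose levels varied little between the genotypes. In Asns (chr6:7693199-7693258, - strand) it lay at -23 to -16, and in Chac1 (chr2:119351023-119351082, + strand) at -193 to -186 on the opposite strand:
Asns: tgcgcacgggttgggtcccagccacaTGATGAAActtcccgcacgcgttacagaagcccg
Chac1: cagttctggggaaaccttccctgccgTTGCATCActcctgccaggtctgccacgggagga
In Trib3 the CARE (TGATGTAA, opposite strand) lay at 15 to 22 after the start. A match of letters is a description of the window and does not show binding.

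The levels of the 10 genes spanned a wide range in the spinal cord. Per kilobase of exon, the mean over the 12 libraries was highest for Hsp90b1 at 179 CPM per kb and for Hspa5 at 131 CPM per kb. Atf4 followed with 68.3 CPM per kb, then Asns with 38.9, Herpud1 with 38.5 and Xbp1 with 31.1 CPM per kb. Asns and Herpud1, neighbours in this order, differed by less than the spread between libraries. Ddit3 had 6.68, Sesn2 6.34 and Chac1 4.89 CPM per kb, and Trib3 had 0.338 CPM per kb. Ddit3 and Sesn2 also differed by less than their spread on this scale, but per kilobase of transcript they had 19.1 and 4.85 CPM per kb. Hsp90b1 lay above 98.9% of the genes tested on this scale and Trib3 above 14.4%.

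Hspa5 (chromosome 2, 34772090 to 34776529) encodes BiP, the main Hsp70 chaperone of the ER and a repressor of the 3 sensors. It had 651, 504 and 303 CPM in the Plekhg5+/+ libraries and 263, 261 and 292 CPM in the Plekhg5-/- libraries. The Plekhg5+/+ SOD1-G93A libraries had 296, 255 and 253 CPM, and the Plekhg5-/- SOD1-G93A libraries 365, 383 and 281 CPM. The first and the second Plekhg5+/+ library were thus the highest of the 12, while the third lay 2.15-fold below the first and within the range of the other genotypes. Within the Plekhg5+/+ genotype the SD of log2 CPM of Hspa5 was 0.56, larger than that of 95.6% of the genes tested. In Plekhg5-/- mice it was 0.09, larger than that of 28.1% of genes. The mean level was 486 ± 174 CPM (SD, n = 3) in Plekhg5+/+ and 272 ± 17.4 CPM in Plekhg5-/- mice. It was 268 ± 24.6 CPM in Plekhg5+/+ SOD1-G93A and 343 ± 54.3 CPM in Plekhg5-/- SOD1-G93A mice.

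Hsp90b1 (chromosome 10, 86690841 to 86705444) encodes GRP94, the Hsp90 chaperone of the ER. It had 660, 569 and 493 CPM in Plekhg5+/+ and 415, 423 and 420 CPM in Plekhg5-/- libraries. The Plekhg5+/+ SOD1-G93A libraries had 477, 476 and 397 CPM, and the Plekhg5-/- SOD1-G93A libraries 554, 566 and 464 CPM. All 3 Plekhg5+/+ libraries exceeded all Plekhg5-/- and all Plekhg5+/+ SOD1-G93A libraries, and all Plekhg5-/- SOD1-G93A libraries exceeded all Plekhg5-/- libraries. In the same comparisons the groups did not overlap, in either direction, for 8.71%, 20.6% and 12.5% of all genes. The Plekhg5-/- libraries differed little among themselves, with an SD of 3.8 CPM around a mean of 419 CPM. Counts of Hsp90b1 were not whole numbers in 7 of the 12 libraries, since reads with several matches were counted as fractions.

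Xbp1 (chromosome 11, 5520641 to 5525993) encodes the transcription factor that IRE1 activates by splicing, and is itself raised by ATF6. It had 120, 102 and 59.8 CPM in Plekhg5+/+ and 60.3, 57.6 and 65.9 CPM in Plekhg5-/- libraries. The Plekhg5+/+ SOD1-G93A libraries had 56.2, 53.9 and 60.9 CPM and the Plekhg5-/- SOD1-G93A libraries 67.5, 74.3 and 60.2 CPM. As for Hspa5, the third Plekhg5+/+ library lay within the range of the other genotypes.

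Herpud1 (chromosome 8, 94386429 to 94395371) encodes a membrane protein of ER-associated degradation, the disposal of misfolded ER proteins. It had 111, 95 and 70.6 CPM in Plekhg5+/+ and 75.5, 70.5 and 66.5 CPM in Plekhg5-/- libraries. It had 63.6, 66.9 and 72.8 CPM in Plekhg5+/+ SOD1-G93A and 66.1, 75.9 and 69.5 CPM in Plekhg5-/- SOD1-G93A libraries. Outside the first and the second Plekhg5+/+ library, Herpud1 stayed between 63.6 and 75.9 CPM.

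**Figure D1:**
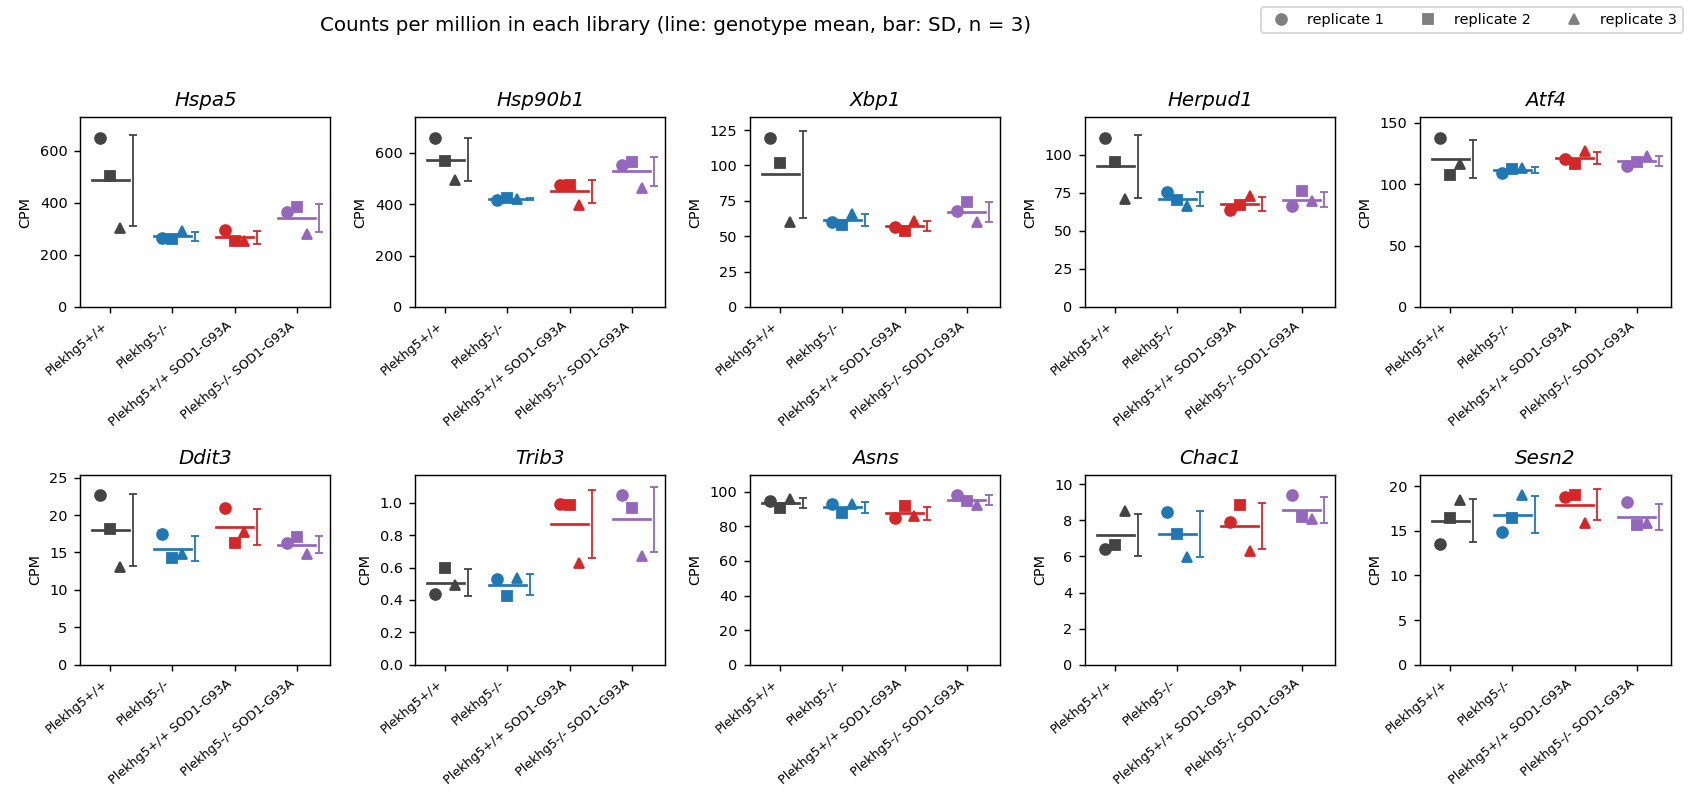
CPM of each gene (vertical axis, starting at 0) in the 12 libraries by genotype (horizontal axis), with symbols for the replicate number, a line for the genotype mean and a bar for the SD (n = 3). The first and the second Plekhg5+/+ library are highest for Hspa5 (651 and 504 CPM), Xbp1 and Herpud1, and the 6 SOD1-G93A libraries are highest for Trib3 (0.63 to 1.05 CPM).

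Summed over 5 Schwann cell markers, among them Prx of peripheral myelin, the first and the second Plekhg5+/+ library had 65.2 and 72.6 CPM and the third had 23.3 CPM. The Plekhg5-/- libraries had 20.5 to 34.0 CPM, the Plekhg5+/+ SOD1-G93A libraries 22.1 to 49.2 CPM and the Plekhg5-/- SOD1-G93A libraries 71.0 to 103 CPM. These markers were therefore high in the libraries with the most Hspa5, and highest in the third Plekhg5-/- SOD1-G93A library, where Hspa5 was at 281 CPM. No Schwann cell marker was at 0 throughout a genotype, and the part of these cells in the ER gene levels was not tested. The summed markers of plasma and B cells, which secrete much protein, were 64.0 to 77.3 CPM in Plekhg5+/+ libraries and 47.3 to 77.5 CPM in the other 9.

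**Figure D2:**
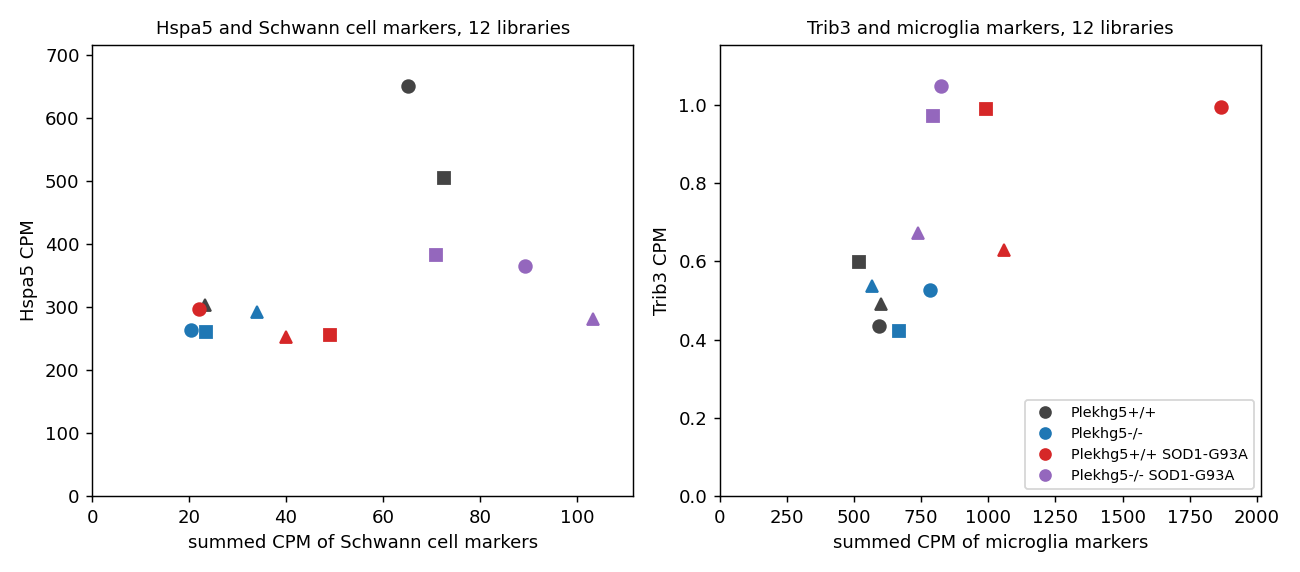
Hspa5 against summed Schwann cell markers (left) and Trib3 against summed microglia markers (right), both axes in CPM and starting at 0, with 1 point for each of 12 libraries, coloured by genotype and with circle, square and triangle for replicates 1, 2 and 3. The first and the second Plekhg5+/+ library have 651 and 504 CPM of Hspa5 at 65.2 and 72.6 CPM of Schwann cell markers, and the third Plekhg5-/- SOD1-G93A library has 281 CPM at 103 CPM.

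The transgene was first compared in mice with Plekhg5. With the SOD1-G93A transgene Hspa5 had a log2 fold change of -0.86 ± 0.22 (SE; edgeR, adjusted p = 0.0639) and Xbp1 of -0.72 ± 0.19 (edgeR, adjusted p = 0.0723). Herpud1 had a log2 fold change of -0.45 ± 0.13 (edgeR, adjusted p = 0.089) and Hsp90b1 of -0.35 ± 0.11 (edgeR, adjusted p = 0.104). None of these passed the threshold of 0.05, so 0 of 10 genes were called, where edgeR called 2.47% of all genes tested. At an unadjusted p under 0.05 there were 5 of the 10, 4 lower and Trib3 higher, against 18.2% of all genes. The groups did not overlap for Hspa5, Hsp90b1 and Trib3, against 20.6% of all genes. DESeq2 with its prior on fold changes called 4 of the 10 (Hspa5, Hsp90b1, Xbp1 and Herpud1, all lower), where it called 6.12% of all genes.

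Which of the ER genes were called depended on the Plekhg5+/+ libraries. For Hspa5 the log2 fold change was -0.59 (edgeR, adjusted p = 0.151) without the first Plekhg5+/+ library and -0.83 (edgeR, adjusted p = 0.207) without the second. Without the third it was -1.12 (edgeR, adjusted p = 0.00646), and all 4 ER genes were then called, where edgeR called 456 of 20465 genes tested. Without the first and the second together, leaving 1 mouse of that genotype, it was -0.18 (edgeR, adjusted p = 0.717), and Hsp90b1, Xbp1 and Herpud1 had log2 fold changes of -0.13, -0.07 and -0.06. Herpud1 was at -0.29 without the first alone. Over all alternatives the adjusted p of Hspa5 ran from 0.00646 to 0.717. With the fit on the 2 genotypes compared alone, 0 of the 10 were called.

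Loss of Plekhg5 without the transgene was compared against the same Plekhg5+/+ libraries, which both comparisons share. Hspa5 had a log2 fold change of -0.84 ± 0.22 (edgeR, adjusted p = 0.713) and Hsp90b1 of -0.45 ± 0.11 (edgeR, adjusted p = 0.608). Xbp1 had a log2 fold change of -0.61 ± 0.19 (edgeR, adjusted p = 0.796) and Herpud1 of -0.38 ± 0.13 (edgeR, adjusted p = 0.844). The call count was 0 of 10, where edgeR called 0.0298% of all genes, and at an unadjusted p under 0.05 it was these 4, all lower, against 5.32% of all genes. Hspa5 and Hsp90b1 did not overlap between the groups, against 8.71% of all genes. DESeq2 with the prior called Hsp90b1 alone among the 10, and 0.144% of all genes. Without the third Plekhg5+/+ library edgeR called all 4, and 59 of the 20465 genes then tested. Without the first, Xbp1 was at -0.40 and Herpud1 at -0.22, and without the first and the second together the log2 fold changes were -0.16 for Hspa5, -0.23 for Hsp90b1, 0.04 for Xbp1 and 0.01 for Herpud1.

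In mice without Plekhg5 the transgene gave no call among the 10, where edgeR called 0.00496% and DESeq2 with the prior 0.196% of all genes, again with 0 of the 10. Hsp90b1 was 1.26-fold higher with the transgene, with a log2 fold change of 0.33 ± 0.11 (edgeR, adjusted p = 0.722). Together with Trib3 it made 2 of 10 genes at an unadjusted p under 0.05, both higher, against 5.38% of all genes. Groups did not overlap for Hsp90b1, Atf4 and Trib3, all higher, against 12.5% of all genes. Hspa5 had a log2 fold change of 0.33 ± 0.22 (edgeR, adjusted p = 0.95), and Xbp1 and Herpud1 were within 0.14 of 0.

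Between the SOD1-G93A genotypes, with Plekhg5-/- against Plekhg5+/+, 0 of 10 genes were called by either tool, where edgeR called 0.0347% and DESeq2 with the prior 0.587% of all genes. Hspa5 had a log2 fold change of 0.35 ± 0.22 (edgeR, adjusted p = 0.628) and Hsp90b1 of 0.23 ± 0.11 (edgeR, adjusted p = 0.577). Asns was the only 1 of the 10 at an unadjusted p under 0.05, against 8.64% of all genes, and the only 1 whose groups did not overlap, against 19.5%.

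Whether the transgene acted differently with and without Plekhg5 was tested as an interaction. For Hspa5 the difference of log2 fold changes was 1.19 ± 0.31 (edgeR, adjusted p = 0.375), for Xbp1 0.85 ± 0.27 (edgeR, adjusted p = 0.407) and for Herpud1 0.44 ± 0.18 (edgeR, adjusted p = 0.505). For Hsp90b1 it was 0.68 ± 0.15 (edgeR, adjusted p = 0.338). The count called was 0 of 10 against 0.0% of all genes, and at an unadjusted p under 0.05 it was these 4 of 10, all positive, against 9.05%. DESeq2 with the prior called Hsp90b1, 1 of 10, against 0.611% of all genes. Without the third Plekhg5+/+ library edgeR called Hspa5, Hsp90b1 and Xbp1, and 40 of the 20465 genes then tested. Without the first and the second together the interaction was 0.51 for Hspa5, 0.46 for Hsp90b1, 0.20 for Xbp1 and 0.05 for Herpud1, with no call, and without the first alone it was 0.28 for Herpud1.

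**Figure D3:**
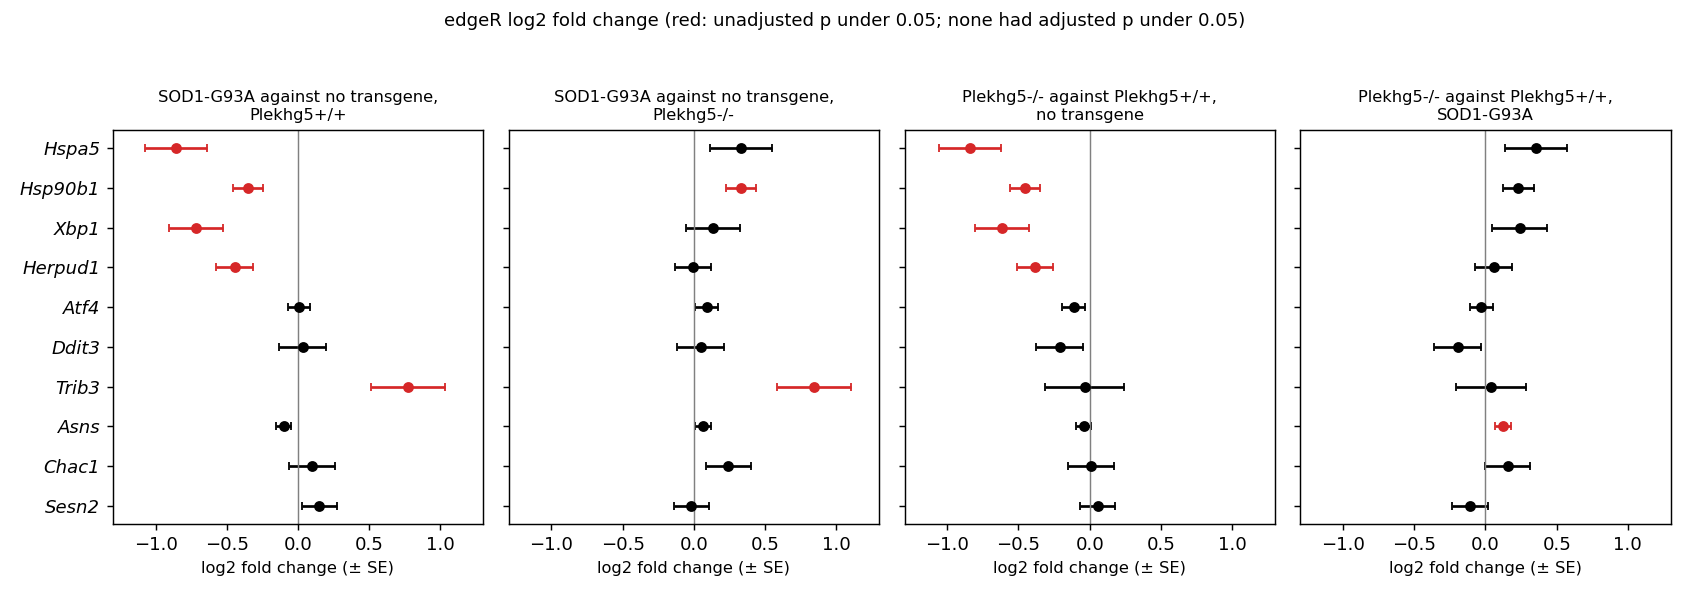
Log2 fold change (horizontal axis, with SE bars) of the 10 genes (vertical axis) in the 4 comparisons of genotypes, from the edgeR fit of all 12 libraries, with red for an unadjusted p under 0.05. The 4 ER genes lie left of 0 in the comparisons of Plekhg5+/+ SOD1-G93A and of Plekhg5-/- with Plekhg5+/+ (Hspa5 at -0.86 and -0.84), and Trib3 lies right of 0 in both comparisons of the transgene (0.77 and 0.85).

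Atf4 and Ddit3 encode the transcription factors ATF4 and CHOP of the integrated stress response. Atf4 (chromosome 15, 80255184 to 80257545) had 138, 107 and 116 CPM in Plekhg5+/+ and 109, 112 and 113 CPM in Plekhg5-/- libraries. It had 120, 117 and 127 CPM in Plekhg5+/+ SOD1-G93A and 115, 118 and 123 CPM in Plekhg5-/- SOD1-G93A libraries. Its level was thus nearly even across the genotypes, with log2 fold changes between -0.11 and 0.09 in the 4 comparisons of genotypes.

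Ddit3 (chromosome 10, 127290793 to 127296291) had 22.7, 18.1 and 13 CPM in Plekhg5+/+ and 17.5, 14.3 and 14.8 CPM in Plekhg5-/- libraries. It had 21, 16.3 and 17.8 CPM in Plekhg5+/+ SOD1-G93A and 16.3, 17.1 and 14.8 CPM in Plekhg5-/- SOD1-G93A libraries. The Plekhg5+/+ genotype held both the highest and the lowest of the 12 values, and the groups overlapped in each comparison. With the transgene the log2 fold change of Ddit3 was 0.03 ± 0.16 in Plekhg5+/+ mice and 0.05 ± 0.17 in Plekhg5-/- mice (edgeR, adjusted p = 0.946 and 0.984).

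Trib3 (chromosome 2, 152337425 to 152344060) encodes a pseudokinase that ATF4 and CHOP induce and that restrains CHOP in turn. It had 0.435, 0.598 and 0.49 CPM in Plekhg5+/+ and 0.527, 0.422 and 0.536 CPM in Plekhg5-/- libraries. The Plekhg5+/+ SOD1-G93A libraries had 0.994, 0.99 and 0.63 CPM and the Plekhg5-/- SOD1-G93A libraries 1.05, 0.971 and 0.673 CPM. All 6 libraries with the transgene lay above all 6 without it, which was so for 1.8% of all genes in either direction. These values rest on 14 to 19 counts without and 21 to 34 counts with the transgene.

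With the transgene Trib3 was 1.71-fold higher in Plekhg5+/+ mice, a log2 fold change of 0.77 ± 0.26 (edgeR, adjusted p = 0.136). In Plekhg5-/- mice it was 1.8-fold higher, with 0.85 ± 0.26 (edgeR, adjusted p = 0.676). Over both Plekhg5 genotypes the mean log2 fold change was 0.81 ± 0.18 (edgeR, adjusted p = 0.0529), just short of the threshold, and 0 of the 10 genes were called there against 1.22% of all genes by edgeR and 3.93% by DESeq2 with the prior. Herpud1, lower, was the other gene of the 10 at an unadjusted p under 0.05, against 14.7% of all genes. The adjusted p of Trib3 ran from 0.0233, without the third Plekhg5+/+ SOD1-G93A library, to 0.292, without the first and the second Plekhg5+/+ library. Trib3 was called when genes with under 10 counts in any library were left out (edgeR, adjusted p = 0.0465). In that fit 234 of 18085 genes were called. The effect of the transgene on Trib3 differed between the Plekhg5 genotypes by a log2 value of 0.07 ± 0.37 (edgeR, adjusted p = 0.962), and loss of Plekhg5 without the transgene gave -0.03 ± 0.28 (edgeR, adjusted p = 1).

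Summed over 12 microglia markers, such as Csf1r and Aif1, the Plekhg5+/+ SOD1-G93A libraries had 992 to 1866 CPM and the Plekhg5+/+ libraries 517 to 602 CPM. The Plekhg5-/- SOD1-G93A libraries had 737 to 822 CPM and the Plekhg5-/- libraries 569 to 784 CPM. Trib3 reached 1.05 CPM in a library with 822 CPM of these markers and 0.994 CPM in the library with 1866 CPM. Motoneuron markers, 8 genes with Chat among them, summed to 345 to 452 CPM in Plekhg5+/+ SOD1-G93A and 441 to 478 CPM in Plekhg5+/+ libraries. They summed to 384 to 509 CPM in Plekhg5-/- SOD1-G93A and 451 to 475 CPM in Plekhg5-/- libraries, with means of 455 and 460 CPM. The part of either cell type in the level of Trib3 was not tested.

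Asns, Chac1 and Sesn2 are further targets of ATF4. Asns (chromosome 6, 7675165 to 7693209), which makes asparagine, had 95, 90.5 and 95.9 CPM in Plekhg5+/+ and 92.8, 87.6 and 93 CPM in Plekhg5-/- libraries. It had 84.9, 91.8 and 85.9 CPM in Plekhg5+/+ SOD1-G93A and 98.2, 94.9 and 92.6 CPM in Plekhg5-/- SOD1-G93A libraries. Relative to its level Asns had the narrowest range of the 10, the highest of the 12 libraries being 1.16-fold the lowest. The last of these genotypes lay above the one before it in every library, where 19.5% of all genes did not overlap. The log2 fold change of Asns there was 0.12 ± 0.05 (edgeR, adjusted p = 0.565).

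Chac1 (chromosome 2, 119351242 to 119354326) encodes an enzyme that degrades glutathione and is induced through ATF4. It had 6.41, 6.64 and 8.51 CPM in Plekhg5+/+, 8.48, 7.26 and 5.96 CPM in Plekhg5-/-, 7.89, 8.88 and 6.33 CPM in Plekhg5+/+ SOD1-G93A and 9.41, 8.2 and 8.11 CPM in Plekhg5-/- SOD1-G93A libraries. The genotypes overlapped in each comparison. Its log2 fold change with the transgene was 0.10 ± 0.16 in Plekhg5+/+ and 0.24 ± 0.16 in Plekhg5-/- mice (edgeR, adjusted p = 0.801 and 0.95).

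Sesn2 (chromosome 4, 132492804 to 132510456) encodes a stress protein that restrains mTORC1. It had 13.6, 16.4 and 18.4 CPM in Plekhg5+/+, 14.9, 16.5 and 19.0 CPM in Plekhg5-/-, 18.9, 19.0 and 15.9 CPM in Plekhg5+/+ SOD1-G93A and 18.3, 15.6 and 15.9 CPM in Plekhg5-/- SOD1-G93A libraries. The groups overlapped, and the log2 fold change with the transgene was 0.15 ± 0.13 in Plekhg5+/+ and -0.02 ± 0.13 in Plekhg5-/- mice (edgeR, adjusted p = 0.572 and 0.996).

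**Figure D4:**
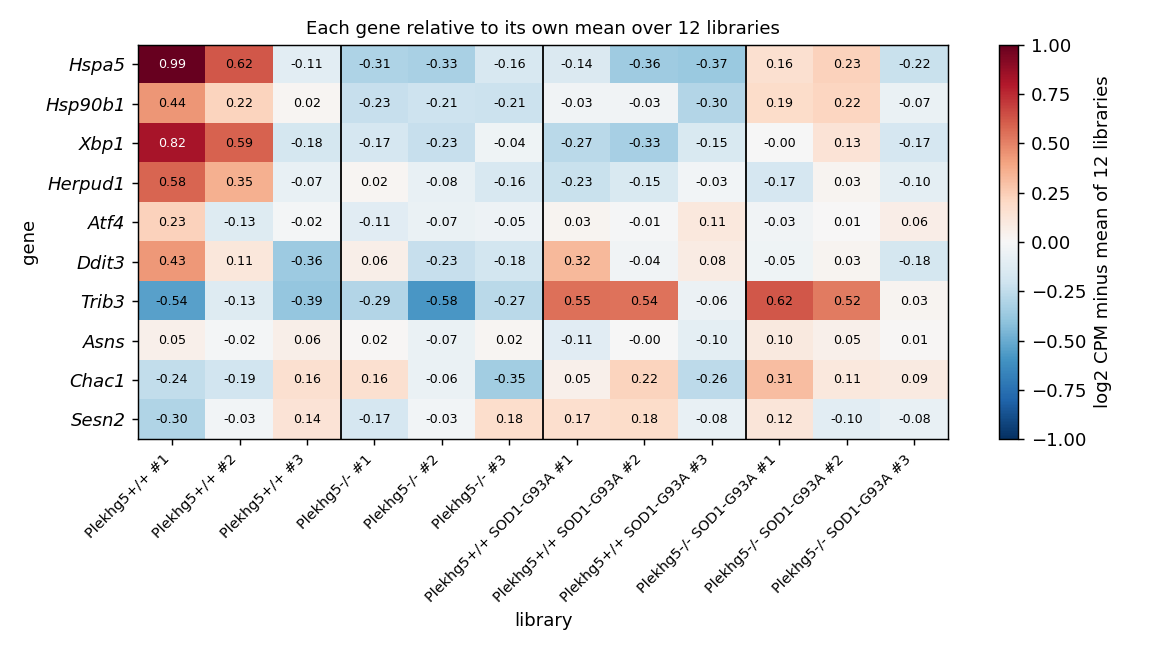
Log2 CPM of each gene (rows) in each library (columns) minus its mean over the 12 libraries, in colour and as numbers, with lines between genotypes. The first Plekhg5+/+ library is at 0.99 for Hspa5 and 0.82 for Xbp1, and Trib3 runs from -0.58 without to 0.62 with the transgene.

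The first Plekhg5+/+ library was the highest of the 12 for 6 of the 10 genes, beside 12.2% of all genes tested. The first Plekhg5-/- SOD1-G93A library was the highest for 3 of the 10, beside 6.13% of all genes. Over the 12 libraries, Hspa5 had a Pearson r of log2 CPM of 0.96 with Xbp1, 0.91 with Hsp90b1 and 0.85 with Herpud1. In the 9 libraries of the other genotypes the same values were 0.82, 0.87 and -0.01. With Atf4, Asns and Trib3 the r of Hspa5 over 12 libraries was 0.33, 0.39 and -0.14. Herpud1 and Sesn2 ran opposite, with r of -0.75 over the 12 and -0.91 over the 9 libraries. These are descriptions over libraries that share genotypes.

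Among 13077 other genes with a mean of at least 5 CPM, the ones most like Hspa5 over the 12 libraries were Pdia6, a disulfide isomerase of the ER (r = 0.98), Hsp90ab1, a cytosolic Hsp90 (r = 0.97), and Manf, an ER stress-induced secreted factor (r = 0.96). The genes most like Asns were Got2-ps1, a pseudogene (r = 0.92), Usp14, a deubiquitinase of the proteasome (r = 0.91), and Oxr1 (r = 0.90). The levels of these 3 spanned a narrow range, as did Asns itself.

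The other genes of the pathways were followed in 6 lists with 90 genes, of which 88 were tested. With the transgene in Plekhg5+/+ mice 2 of 88 were called by edgeR, a share near the 2.47% of all genes. DESeq2 with the prior called 8 of 90, where it called 6.12% of all genes. Atf3, a transcription factor downstream of ATF4 and also a marker of injured neurons, rose 3.11-fold, with a log2 fold change of 1.64 ± 0.38 (edgeR, adjusted p = 0.0452). Hyou1, an ER chaperone of the Hsp110 family, fell by 0.42 on the log2 scale, with an SE of 0.09 (edgeR, adjusted p = 0.034). Atf3 had 3.54, 2.64 and 1.99 CPM in Plekhg5+/+ and 14.3, 6.4 and 4.77 CPM in Plekhg5+/+ SOD1-G93A libraries. The highest value was that of the library with the most microglia markers. Hyou1 had 130, 131 and 106 CPM in Plekhg5+/+ and 93.4, 93.7 and 86.2 CPM in Plekhg5+/+ SOD1-G93A libraries. Both calls were lost without the first Plekhg5+/+ library (edgeR, adjusted p = 0.0929 for Atf3 and 0.0985 for Hyou1) and without the second (0.179 and 0.155). Of the 12 fits that each left out 1 library, 10 lost the call of Atf3 and 6 that of Hyou1, and over all alternatives the adjusted p ran from 0.000157 to 0.494 for Atf3 and from 0.00099 to 0.581 for Hyou1.

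In Plekhg5-/- mice Atf3 had 1.4, 1.48 and 2.43 CPM without and 6.91, 5.22 and 5.02 CPM with the transgene, a log2 fold change of 1.69 ± 0.39 (edgeR, adjusted p = 0.455). DESeq2 with and without the prior called Atf3 in this comparison, where 0.196% of all genes were called with the prior. Over both Plekhg5 genotypes Atf3 rose 3.17-fold, with a log2 fold change of 1.66 ± 0.27 (edgeR, adjusted p = 0.0263), the only call among the 88, where 1.22% of all genes were called. All 6 libraries with the transgene lay above all 6 without it, as for Trib3, where 1.8% of all genes did not overlap. This call was lost in 6 of the 12 fits that each left out 1 library. The next genes by p were Mthfd2, of mitochondrial folate metabolism, with -0.23 ± 0.07, Creb3l1 with 0.44 ± 0.14, Eif2ak2 (the kinase PKR) with 0.37 ± 0.11 and Ppp1r15a (GADD34, which dephosphorylates eIF2) with 0.22 ± 0.07, and none of these was called. DESeq2 with and without the prior called Atf3 and Gdf15, both higher, over both Plekhg5 genotypes. With the prior it called 3.93% of all genes there. Gdf15 did not pass the filter used for edgeR.

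Of the 20 other ER chaperone and folding genes, 10 were lower and 1 higher with the transgene in Plekhg5+/+ mice at an unadjusted p under 0.05, where 7.51% of all genes were lower and 10.6% higher, with a median log2 fold change of -0.18 beside -0.00 over all genes. In Plekhg5-/- against Plekhg5+/+ mice 12 of the 20 were lower and 0 higher, where 2.79% of all genes were lower and 2.53% higher, with a median of -0.20 beside 0.01 over all genes. None passed the adjusted threshold by edgeR in that comparison. DESeq2 with the prior called Hyou1 and Sdf2l1, where it called 0.144% of all genes. Without the first and the second Plekhg5+/+ library, leaving 1 mouse of that genotype, the medians were 0.02 with the transgene and -0.05 with loss of Plekhg5. Sdf2l1, a cofactor of the ER chaperones, had 28.8, 20.7 and 11.2 CPM in Plekhg5+/+ libraries and 8.32 to 9.51 CPM in Plekhg5-/- libraries. Pdia6 had 155, 125 and 92.3 CPM in Plekhg5+/+ and 83.1 to 90.4 CPM in Plekhg5-/- libraries. Both had the order of Hspa5 among the Plekhg5+/+ libraries, but they were named for a small p against these same libraries. Pdia6 was also the gene most like Hspa5. Hyou1, with the smallest p there, had 130, 131 and 106 CPM in the Plekhg5+/+ libraries. The first and the second were nearly equal, and the third was the lowest, as for Hspa5. The first Plekhg5+/+ library was the highest of the 12 for 13 of the 20 genes and for 12.2% of all genes tested. Derl3, of ER-associated degradation, had 2.49, 1.92 and 1.53 CPM in Plekhg5+/+ and 0.452 to 1.02 CPM in Plekhg5-/- libraries, a log2 fold change of -1.43 ± 0.32 (edgeR, adjusted p = 0.532).

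For the interaction, 14 of the 20 ER chaperone and folding genes had an unadjusted p under 0.05, all positive, where 3.87% of all genes were positive and 5.18% negative at that threshold. The count of 14 comes from the fit of all 12 libraries. Without the first and the second Plekhg5+/+ library, leaving 1 mouse of that genotype, the median of the 20 went from 0.32 to 0.17. By edgeR 0 of 88 genes of the lists were called. DESeq2 with the prior called Hyou1, Sdf2l1 and Derl3, where it called 0.611% of all genes. The smallest p was that of Hyou1, with 0.65 ± 0.13 (edgeR, adjusted p = 0.338). Of 28 tested ATF4 and CHOP targets, 0 reached an unadjusted p under 0.05 in the interaction and 0 in Plekhg5-/- against Plekhg5+/+ mice, with medians of -0.01 in both. With the transgene in Plekhg5+/+ mice 3 of the 28 were higher and 1 lower at that threshold, beside 18.2% of all genes in either direction, and in Plekhg5-/- mice 1 was higher, which was Atf3.

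Of the 9 sensors and transducers, among them Ern1 (IRE1), Eif2ak3 (PERK) and Atf6, and of the 9 kinases and eIF2 or eIF2B subunits, none was called by edgeR in any of the 6 comparisons. DESeq2 with the prior called Eif2ak2 with the transgene in Plekhg5+/+ mice, where it called 6.12% of all genes. The list medians of these 18 genes lay between -0.09 and 0.14 on the log2 scale. Eif2ak2 had the smallest p among them with the transgene in Plekhg5+/+ mice, with 0.57 ± 0.16 (edgeR, adjusted p = 0.0816). Among the 7 inhibitors and feedback genes the smallest p was that of Bak1, a pore-forming protein of apoptosis, which had a log2 fold change of 0.28 ± 0.08 with the transgene in Plekhg5+/+ mice (edgeR, adjusted p = 0.0925) and of -0.32 ± 0.08 between the SOD1-G93A genotypes (edgeR, adjusted p = 0.402). In that last comparison Edem2, with -0.23 ± 0.08, Hyou1, with 0.24 ± 0.09, and Sel1l, with 0.21 ± 0.09, came next, and no gene of the lists was called by edgeR or DESeq2.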

How the data were processed

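RNA of whole spinal cord from 12 mice of 7 months, 3 per genotype, was sequenced by the authors after poly-A selection with a stranded kit. Per the labels and the methods of the study, trimming was done by the authors with Cutadapt 2.4, alignment to GRCm38.p6 plus the human SOD1 cDNA with STAR 2.7.2b, and strand-specific counting on exons with featureCounts 1.6.4. Reads with several matches entered as fractions, so the deposited values are expected counts, not normalized. The exon length of each gene is another column of the deposited table. All 12 columns were matched to mice through their names and titles, with 0 columns left over. The mice were separate animals, and none were merged, since the chi-square per degree of freedom between replicates was 5.68 or more.

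Counts were rounded. Genes were filtered with filterByExpr, libraries scaled with TMM, and the 4 genotypes fitted together with the robust quasi-likelihood test of edgeR 4.0.16 in R 4.3.3. P-values were adjusted by Benjamini-Hochberg over all 20155 genes tested, with a threshold of 0.05. CPM use the TMM library sizes, and log2 CPM for SDs and correlations used a prior count of 2. In a test on simulated data drawn for the comparison of Plekhg5+/+ SOD1-G93A with Plekhg5+/+, over 19969 genes, edgeR called 161 of 200 genes changed 2-fold and 13 others. Genes were drawn independently there, so differences of a library shared by many genes were not simulated, and these rates do not cover them.

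The members, gene lists, cell type markers and tests were chosen with earlier results of these data known. Named genes are the 10 members, Plekhg5 and human SOD1, per comparison up to 15 called genes of the lists with the smallest p or, with fewer than 5 called, the 5 with the smallest p, and the 3 genes most like Hspa5 and like Asns. Sdf2l1, Pdia6 and Derl3 fall under this rule, and the marker genes named are examples of their lists. A further Schwann cell marker is not reported here and is not in the summed level. Ero1a and Ero1b were matched through gene IDs, and Gdf15 and Fgf21 did not pass the filter. Promoters were given for all 10 members. Alternatives were DESeq2 1.42.0 with and without a prior, its size factors, no filter, at least 10 counts in every library, only the genotypes compared, the replicate number as a block, a Y-linked covariate (over 1000 counts of Y-linked genes), an adjusted p under 0.1, each library left out, transcript in place of exon length, and, chosen after seeing the data, leaving out the first and the second Plekhg5+/+ library together. Plots were drawn with matplotlib 3.10.9 in Python 3.11.15.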

Additional observations from a re-analysis of the deposited data

Results flagged for a closer look

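Hsp90b1 differed in opposite directions with the transgene, without overlap of the libraries. It was lower in Plekhg5+/+ mice (397 to 477 CPM with the transgene, 493 to 660 CPM without). In Plekhg5-/- mice it was higher (464 to 566 CPM with the transgene, 415 to 423 CPM without). Neither difference passed the threshold (edgeR, adjusted p = 0.104 and 0.722). Groups did not overlap for 20.6% and 12.5% of all genes in these comparisons. The interaction was 0.6845 on the log2 scale (edgeR, adjusted p = 0.338, and DESeq2 with the prior, adjusted p = 0.0105). Without the first and the second Plekhg5+/+ library the interaction was 0.46. Over all alternatives its adjusted p ran from 0.0105 to 0.8. The cause was not tested.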

How the results depend on the processing

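Over all alternatives, DESeq2 included, the 10 genes kept the direction and side of the threshold of the edgeR result in 1203 of 1300 values, gained a call in 33 and changed sign without any call in 64. With the transgene in Plekhg5+/+ mice the members called were 4 with either DESeq2 fit, 3 at an adjusted p under 0.1, 2 with the replicate block and 0 to 4 when 1 library was left out. The pathway genes called there were 2 in the main result, 7 without and 8 with the DESeq2 prior, 4 at an adjusted p under 0.1, 0 with only the genotypes compared, 0 to 10 when 1 library was left out and 0 without the first and the second Plekhg5+/+ library. The count over all genes there was 498, with 1200 by DESeq2 with the prior, 1159 without it, 631 with the replicate block, 1145 at an adjusted p under 0.1, 3 with only the genotypes compared, 4, 2 and 456 without the first, the second and the third Plekhg5+/+ library and 0 without the first and the second. With the transgene in Plekhg5-/- mice 1 pathway gene was called by either DESeq2 fit and with only the genotypes compared, and 0 to 1 when 1 library was left out. Over all genes 41 of 20880 were called there with the prior, 43 of 20880 without it and 20 of 19573 with only the genotypes compared. For loss of Plekhg5 without the transgene either DESeq2 fit called 1 member and 2 pathway genes, and leaving out 1 library gave 0 to 4 members and 0 to 6 pathway genes. Over all genes 32 of 22163 were called there with the prior, 34 of 22163 without it and 59 of 20465 without the third Plekhg5+/+ library. For the transgene over both Plekhg5 genotypes 1 member, Trib3, was called at an adjusted p under 0.1, beside 733 of 20155 genes. It was also called with at least 10 counts in every library (234 of 18085 genes) and with the replicate block (417 of 20155 genes). Trib3 was called without the third Plekhg5+/+ SOD1-G93A library (498 of 20467 genes) and Xbp1 without the third Plekhg5+/+ library (101 of 20465 genes). Over both Plekhg5 genotypes leaving out 1 library thus gave 0 to 1 member. Pathway genes called there were 1 in the main result, 2 by either DESeq2 fit, 0 to 2 when 1 library was left out and 0 without the first and the second Plekhg5+/+ library. For the interaction either DESeq2 fit called 1 member and 3 pathway genes, and leaving out 1 library gave 0 to 3 and 0 to 5. Over all genes 112 of 18317 were called there with the prior, 95 of 17677 without it and 40 of 20465 without the third Plekhg5+/+ library. The causes were not tested. Where 1 library of a genotype remained, it was assumed to vary like the others.

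The replicate numbers do not pair the mice by the labels, and only 5 of 12 correlations between deviations of same-numbered libraries were over 0.1 (range -0.11 to 0.32). With the replicate block the calls among the 10 genes that changed were Hspa5 and Hsp90b1 with the transgene in Plekhg5+/+ mice and Trib3 over both Plekhg5 genotypes. Lengths of GENCODE transcripts with a RefSeq match left the order of the 10 levels per kilobase as it was, with Ddit3 at 19.1 in place of 6.68 CPM per kb. Trib3, at 14 to 34 counts, is the least precise of the 10.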
